A study of Mus musculus with 12 samples.

Results

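The symbols described here are the microRNA genes that received reads in RNA sequencing of mouse bone marrow-derived macrophages. They were chosen by the counts themselves: every symbol that starts with Mir followed by a digit or by let and has at least 1 count summed over the 12 libraries, with Mir6381 left out by the rule. Of the 24552 symbols in the count table, 1182 carry such a name and 79 met the rule. Of these 79, 75 are hairpin genes and 4 are host transcripts whose symbols end in hg. At the edge of the rule, 21 symbols had exactly 1 count and 1102 had 0. Being counted at all is therefore a property of the choice and not a result.

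The cells had been cultured for 6 days with M-CSF at 10 ng/ml. They then received vehicle (DMSO) or ISRIB, an inhibitor of the integrated stress response, at 50 nM for 1 h, and the M1 samples were then given LPS (10 ng/ml) together with IFN-γ (25 ng/ml) over 16 h. Each combination of agent and state (M0 or M1 with vehicle, M0 or M1 with ISRIB) has 3 replicates labelled as biological, which makes 4 groups. They give neither mouse strain, age nor the animals behind a replicate, and the treatment of M0 cells over those 16 h is not described in them. Where replicates share an animal, p-values measure only the spread between these samples.

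A microRNA gene is transcribed into a long primary transcript, from which Drosha cuts a short hairpin in the nucleus and Dicer a mature RNA in the cytoplasm. The mature RNA guides an Argonaute protein to messenger RNAs that pair with its seed, bases 2 to 8. Many hairpins lie inside introns or exons of other genes, and macrophages are known for miR-155, miR-146 and miR-223. The libraries here were made from polyadenylated RNA with a strand-specific kit, which is not designed to capture mature microRNAs, so a count is a longer fragment assigned to the hairpin's symbol.

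Total counts per library ranged from 439976 to 514037, and between 4791 and 5665 symbols had a count. All 8 macrophage markers had counts, with sums of 209 to 466 per M0 library and 91 to 257 per M1 library. Lyz2 had the most, with 146 to 334 counts in M0 and 38 to 106 in M1. The markers did not all go the same way. Csf1r had 35 to 71 counts in M0 and 8 to 31 in M1, while Itgam had 4 to 18 in M0 and 17 to 49 in M1. The 4 M1-like markers summed to at most 2 counts in M0 and to 116 to 238 in M1. The markers of fibroblasts, dendritic cells and erythroid cells were at 0 in all libraries. The T cell and neutrophil markers reached a sum of at most 4 in any library, with Cd3e, Cd3d, Cd8a and Ly6g at 0, and the B cell gene Cd79a also reached at most 4. At this depth a count of 0 allows up to 3 counts, which is 0.000584% to 0.000682% of a library, and such limits cover counting error only.

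The mature sequences of 8 of the 10 microRNA genes called between M0 and M1 are shown to identify the loci (not those of Mir6357 and Mir1901), with the seed in capitals and written 5′ to 3′ (RefSeq, GRCm38.p6).
miR-6340: gUCAGCAGcagcuucgcuuuggc
miR-6244: gGGGGCGUggaauuaucgggu
miR-6385: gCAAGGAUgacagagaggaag
miR-130c: cAGUGCAAuguuccaaggugug
miR-1896: cUCUCUGAuggugggugaggag
miR-762: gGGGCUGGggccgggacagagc
miR-3082-5p: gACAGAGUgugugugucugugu
miR-3082-3p: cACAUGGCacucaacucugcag
miR-3074-5p: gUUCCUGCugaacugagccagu
These seeds were all different. The miR-130c seed is shared with 6 other mature microRNAs in the RefSeq table, among them miR-130a-3p, miR-130b-3p and miR-301a-3p, while the seeds of miR-6340, miR-6244, miR-6385 and miR-1896 were found in no other. Mature sequences were found for 63 of the 79 symbols, and only 2 seeds occurred in more than 1 of them, that of Mir3074-1 and Mir3074-2 and that of Mir194-1 and Mir194-2.

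The 79 symbols had 12822 counts in all, 958 to 1221 per library, or 0.195% to 0.249% of a library. Mir6340 alone held 22.5% to 33.4% of these counts in M0 libraries and 54.5% to 62.4% in M1 libraries. Between 19 and 33 of the symbols were detected in any one library. Only 12 had counts in all 12 libraries, 32 were seen in a single library, and 57 had at most 10 counts in total.

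Counted symbols were most frequent among loci that lie opposite an exon of another gene. Placed on GENCODE vM21 (GRCm38), 59 of 1181 microRNA symbols overlapped an exon of another gene on the opposite strand, and 23 of these had counts. Of 258 symbols in a same-strand exon only, 10 had counts (3.88%). Introns showed the same order, with 19 of 108 counted where the other gene lay on the opposite strand (17.6%) and 15 of 514 where it lay on the same strand only (2.92%). Of 241 loci that overlapped no gene other than microRNA genes, 11 had counts (4.56%). A read at a hairpin in a same-strand exon also overlaps the other gene on its strand. A counting rule that leaves out such reads lowers that class whatever is transcribed, and the rule used was not examined here. These shares are a description, and no test was made of them.

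The counts were more uneven than the number of symbols. The 23 symbols in an opposite-strand exon, 29.1% of the 79, held 95.5% of the counts, while those in a same-strand exon only held 0.460% and those in a same-strand intron only 0.289%. Which transcript the reads came from was not tested, and the strand setting of the authors' counting is not given in the sources used here.

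**Figure D1:**
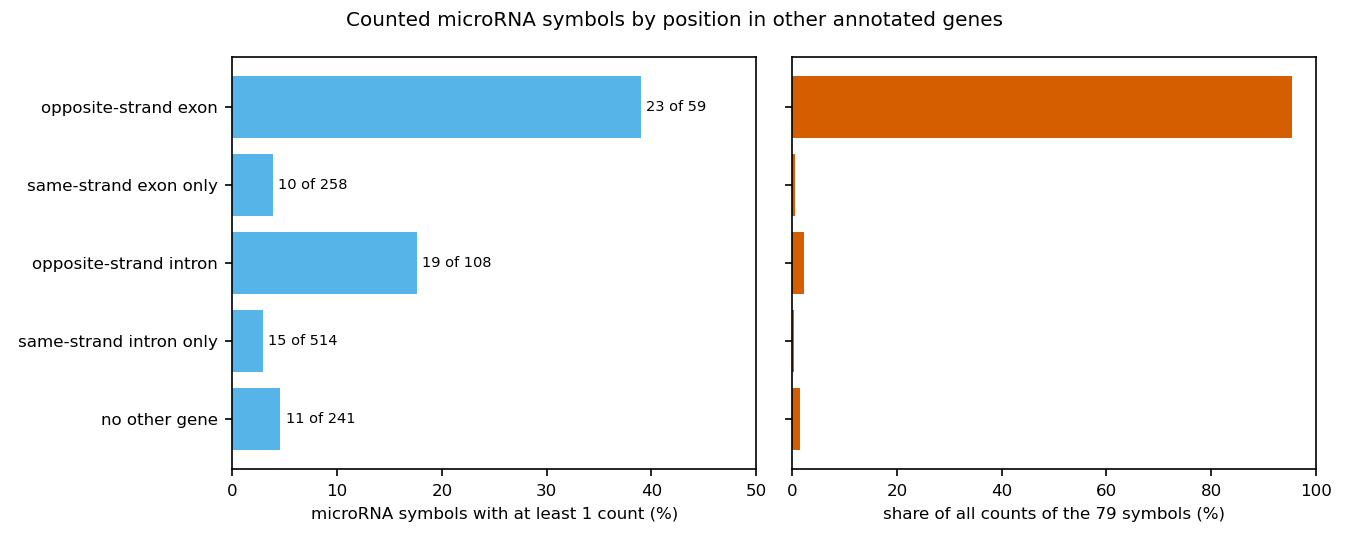
Left, the percent of microRNA symbols with at least 1 count by where the locus lies relative to other annotated genes; right, the percent of all counts of the 79 symbols in each class. The class in an opposite-strand exon has 23 of 59 symbols counted and 95.5% of the counts.

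The 10 counted symbols in a same-strand exon only had 59 counts together, and the 15 in a same-strand intron only had 37. Mir3082 had 666, but it lies both in a coding exon of Stub1 on its own strand and opposite an exon of Jmjd8. Mir1191 lies in the 3′ UTR of BC024978, which had 324 to 560 counts per library, and had 17 counts over the 12 libraries. Reads at Mir1191 also overlap BC024978, so its value depends on the counting rule for shared reads. Mir7040, in an intron of Loxl3 with 656 to 1290 counts per library, had 1 count.

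Most known macrophage microRNAs had no counts, as was the case for most microRNA symbols. Of 45 symbols listed from general knowledge, 43 were in the table. Of these, 40 had 0 counts in all 12 libraries, Mir155, Mir146, Mir146b, Mir21a and Mir223 among them. Over all 1181 microRNA symbols, 79 had counts (6.69%), so the few counts are not particular to the list. The host transcript of miR-155, Mir155hg, had 1 count, in 1 ISRIB M1 library, and Mir22hg had 4. Mir99ahg, the host of the miR-99a, let-7c and miR-125b cluster, also had 4, all in ISRIB M1 replicate 2, and Mir1a-1hg had 1. The listed symbol with more was Mir142b, with 215.

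Mir142b and Mir3074-1 are hairpins annotated on the strand opposite to a better known microRNA gene. Of the 1181 symbols, 55 lie opposite another microRNA gene and 6 of these had counts, while the 6 partners (Mir142, Mir24-1, Mir24-2, Mir219b, Mir374b and Mir1b) were all at 0. The mature RNAs of 2 such pairs are shown because they are written from the same bases.
miR-142b: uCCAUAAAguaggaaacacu
miR-142a-3p: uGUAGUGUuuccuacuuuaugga
miR-3074-5p: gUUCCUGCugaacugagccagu
miR-24-3p: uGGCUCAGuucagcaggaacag
All 20 bases of miR-142b are complementary to miR-142a-3p, and 20 of the 22 bases of miR-3074-5p are complementary to miR-24-3p in 1 unbroken run. Mir142b (chr11:87756841-87756955, minus strand) had 19, 17 and 31 counts in vehicle M0 and 17, 29 and 17 in vehicle M1. Under ISRIB it had 8, 12 and 21 counts in M0 and 1, 22 and 21 in M1. The 4 groups overlapped, and M1 against M0 did not pass in vehicle or in ISRIB (log2 fold change 0.30 ± 0.61 and 0.38 ± 0.65 SE, adjusted p 0.716 and 0.660). Mir142, on the plus strand within it, gives rise to a microRNA abundant in blood cells. All of Mir142b also lies opposite an intron of the noncoding gene Mir142hg, whose symbol is not in the count table.

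**Figure D2:**
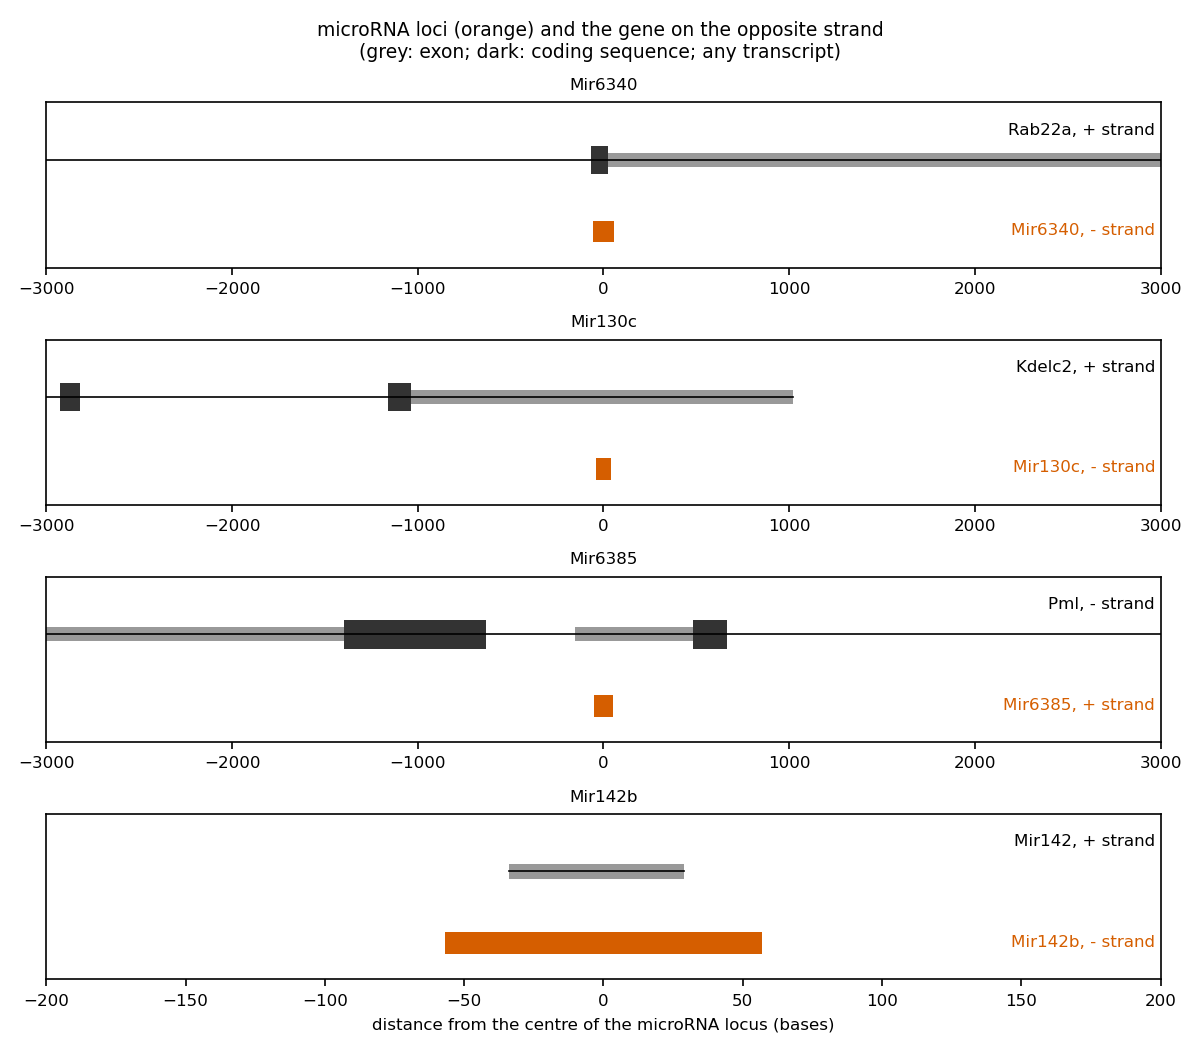
Position of 4 microRNA loci (orange) against the gene annotated on the opposite strand, as the distance in bases from the centre of the locus; grey boxes are exons of any transcript and dark boxes coding sequence. Mir6340, Mir130c and Mir6385 lie wholly within an exon of Rab22a, Kdelc2 and Pml, and Mir142 lies within Mir142b. The longer gene Mir142hg, also opposite Mir142b, is not drawn.

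Differences between groups were tested with edgeR's quasi-likelihood test on all 2356 genes with enough counts, with Benjamini-Hochberg adjustment over all of them and a threshold of 0.05. Only 14 of the 79 symbols passed the filter on low counts, and they held 96.6% of the counts. A symbol that passes through the group where it is high may differ for that reason, so the counts that follow describe these 14 and not all 79. Levels are counts per 1000000 counts after TMM scaling (CPM), with the SD over 3 replicates. In vehicle, 3 of the 14 were higher in M1 and 6 lower, against 24.3% and 20.5% of all genes tested. In ISRIB 3 were higher and 6 lower, against 23.9% and 20.9%. Of the 14, 8 were called in both, each in the same direction. Of all genes tested 44.8% passed in each comparison, and the share that passed in both was not counted. The median log2 fold change of the 14 was 0.22 in vehicle and -0.21 in ISRIB, against 0.01 and -0.01 over all genes tested.

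In M1 cells 3 loci rose with vehicle and with ISRIB, Mir6340, Mir6244 and Mir6385, each opposite an exon of a protein-coding gene. Mir6340 (chr2:173701030-173701148, minus strand) spans the end of the coding sequence and the start of the 3′ UTR of Rab22a, a small GTPase of endosomes. It had 335, 294 and 262 counts in vehicle M0 and 616, 602 and 630 in vehicle M1. Under ISRIB it had 269, 275 and 287 counts in M0 and 663, 645 and 648 in M1. Every M1 library lay above every M0 library. Its level was 559 ± 53.3 CPM in vehicle M0 and 1535 ± 17.8 in vehicle M1, a log2 fold change of 1.46 ± 0.12 (SE, adjusted p 3.23e-10 by edgeR). In ISRIB the log2 fold change was 1.53 ± 0.12 (adjusted p 1.22e-10 by edgeR). In bulk samples fewer cells of a type and less RNA per cell cannot be told apart. The symbol Rab22a itself had 0 to 4 counts per library.

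Mir6244 (chr9:52115623-52115739, plus strand) lies opposite a coding exon of Zc3h12c, of the Regnase family of RNA-degrading proteins. Its counts were 75, 64 and 45 in vehicle M0 and 146, 140 and 185 in vehicle M1. With ISRIB the counts were 52, 57 and 55 in M0 and 124, 138 and 134 in M1. The M0 and M1 libraries did not overlap. The log2 fold change was 1.76 ± 0.21 in vehicle and 1.57 ± 0.21 in ISRIB (SE, adjusted p 1.52e-07 and 1.19e-06 by edgeR). Zc3h12c had 2 counts, in 1 vehicle M1 library.

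Mir6385 (chr9:58221150-58221254, plus strand) lies opposite a 3′ UTR of Pml, the scaffold of nuclear bodies and an interferon-induced gene. It had 3, 1 and 4 counts in vehicle M0 and 15, 15 and 16 in vehicle M1. The ISRIB libraries had 4, 1 and 1 in M0 and 9, 15 and 10 in M1. The groups did not overlap, but the counts were low. The log2 fold change was 2.85 ± 0.84 in vehicle and 2.69 ± 0.88 in ISRIB (SE, adjusted p 0.00754 and 0.0147 by edgeR). The call in ISRIB was lost without ISRIB M0 replicate 2 (adjusted p 0.0621), ISRIB M0 replicate 3 (0.0620) or ISRIB M1 replicate 2 (0.0502), and without a filter on low counts (0.0672). Mir6385 did not reach the filter in the fit of the ISRIB groups alone, and without ISRIB M0 replicate 1 its change was 3.65 (adjusted p 0.00942). No M0 library had a count of Pml, whose M1 counts were 6, 2 and 8 with vehicle and 6, 6 and 0 with ISRIB.

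In vehicle M1 cells 6 loci fell, Mir130c, Mir1896, Mir3082, Mir3074-1, Mir6357 and Mir1901. Mir130c (chr9:53400805-53400886, minus strand) lies opposite the 3′ UTR of Kdelc2, an endoplasmic reticulum glucosyltransferase gene that had 0 counts in all libraries. It had 109, 80 and 101 counts in vehicle M0 against 17, 11 and 10 in vehicle M1. Counts under ISRIB were 116, 115 and 109 in M0 against 14, 34 and 22 in M1. The lowest M0 library lay above the highest M1 library. The level fell from 183 ± 34.8 to 31.6 ± 9.71 CPM in vehicle, a log2 fold change of -2.53 ± 0.33, and the change was -1.99 ± 0.31 in ISRIB (SE, adjusted p 7.15e-07 and 7.48e-06 by edgeR).

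Mir1896 (chr13:21445160-21445240, plus strand) lies opposite a coding exon of the zinc finger gene Zscan26 and within an exon of the noncoding 4930470G03Rik on its own strand. Its counts were 133, 161 and 154 in vehicle M0, 41, 37 and 37 in vehicle M1, 105, 134 and 147 in ISRIB M0 and 36, 56 and 49 in ISRIB M1. M0 and M1 libraries were separate. The log2 fold change was -1.56 ± 0.23 in vehicle and -1.15 ± 0.23 in ISRIB (SE, adjusted p 4.52e-06 and 0.000193 by edgeR). Zscan26 had 4 counts in each of 2 libraries and none in the others.

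Mir3082 (chr17:25831365-25831428, minus strand) lies where 2 genes overlap, in a coding exon of Stub1 on its own strand and in the 3′ UTR of Jmjd8 on the other. Stub1 encodes a ubiquitin ligase that works with heat shock proteins. Mir3082 had 60, 100 and 87 counts in vehicle M0 and 31, 26 and 31 in vehicle M1. With ISRIB the counts were 89, 102 and 63 in M0 and 24, 22 and 31 in M1. All M1 libraries were below all M0 libraries. Its log2 fold change was -1.09 ± 0.30 in vehicle and -1.42 ± 0.31 in ISRIB (SE, adjusted p 0.00475 and 0.000485 by edgeR). The symbol Stub1 also fell, by 0.82 and 1.17 on the log2 scale (adjusted p 8.24e-05 and 5.53e-07 by edgeR). Jmjd8, with 1540 to 2679 counts per library, did not pass (log2 fold change -0.09 and -0.24, adjusted p 0.587 and 0.121 by edgeR). Mir3082 was the called symbol whose overlapping genes both had enough counts to be tested.

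Mir3074-1 (chr13:63301199-63301283, minus strand) lies opposite exons of 2010111I01Rik and in an intron of Fancc, a Fanconi anaemia DNA repair gene, on its own strand. It had 35, 38 and 49 counts in vehicle M0 and 8, 11 and 2 in vehicle M1. Under ISRIB the counts were 36, 50 and 28 in M0 and 1, 7 and 2 in M1, again with no overlap between M0 and M1. The log2 fold change was -2.12 ± 0.57 in vehicle and -3.18 ± 0.63 in ISRIB (SE, adjusted p 0.00359 and 0.000190 by edgeR), and the change in ISRIB was -4.21 without ISRIB M1 replicate 2. 2010111I01Rik had 4 to 27 counts per library and did not pass (log2 fold change -0.36 and 0.09, adjusted p 0.607 and 0.898 by edgeR). Mir3074-2, the other hairpin with the same mature sequence, had 31 counts, of which 16 were in ISRIB M0 replicate 2.

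Mir1901 (chr18:11840361-11840438, minus strand) had no count in any M1 library. It lies opposite a coding exon of Cables1, a cyclin-dependent kinase partner. It also lies within an exon of the noncoding Gm6277 on its own strand, a symbol with 0 counts in all libraries. The counts of Mir1901 were 22, 44 and 44 in vehicle M0 and 32, 22 and 19 in ISRIB M0. Against a floor of 3 counts per library it was at least 9.30-fold lower in vehicle M1 and at least 6.69-fold lower in ISRIB M1 (adjusted p 5.57e-06 and 1.74e-05 by edgeR). Cables1 had 8, 3 and 12 counts in vehicle M0, 1, 2 and 8 in ISRIB M0, and also 0 in all 6 M1 libraries.

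Mir6357 (chr18:70516786-70516889, plus strand) lies opposite the end of Poli, which encodes a translesion DNA polymerase and had 0 counts in all libraries. It had 24, 29 and 38 counts in vehicle M0 and 4, 4 and 6 in vehicle M1, with no overlap. In ISRIB it had 25, 26 and 23 counts in M0 and 22, 12 and 8 in M1. The log2 fold change was -2.29 ± 0.57 in vehicle (SE, adjusted p 0.00184 by edgeR) and -0.50 ± 0.51 in ISRIB, which did not pass (adjusted p 0.442). Without ISRIB M1 replicate 1 the ISRIB value was -1.05 and without ISRIB M1 replicate 3 it was -0.22, and neither passed (adjusted p 0.166 and 0.777). The difference between them was 1.78 ± 0.76 on the log2 scale and did not pass (unadjusted p 0.0277, adjusted p 0.611 by edgeR).

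**Figure D3:**
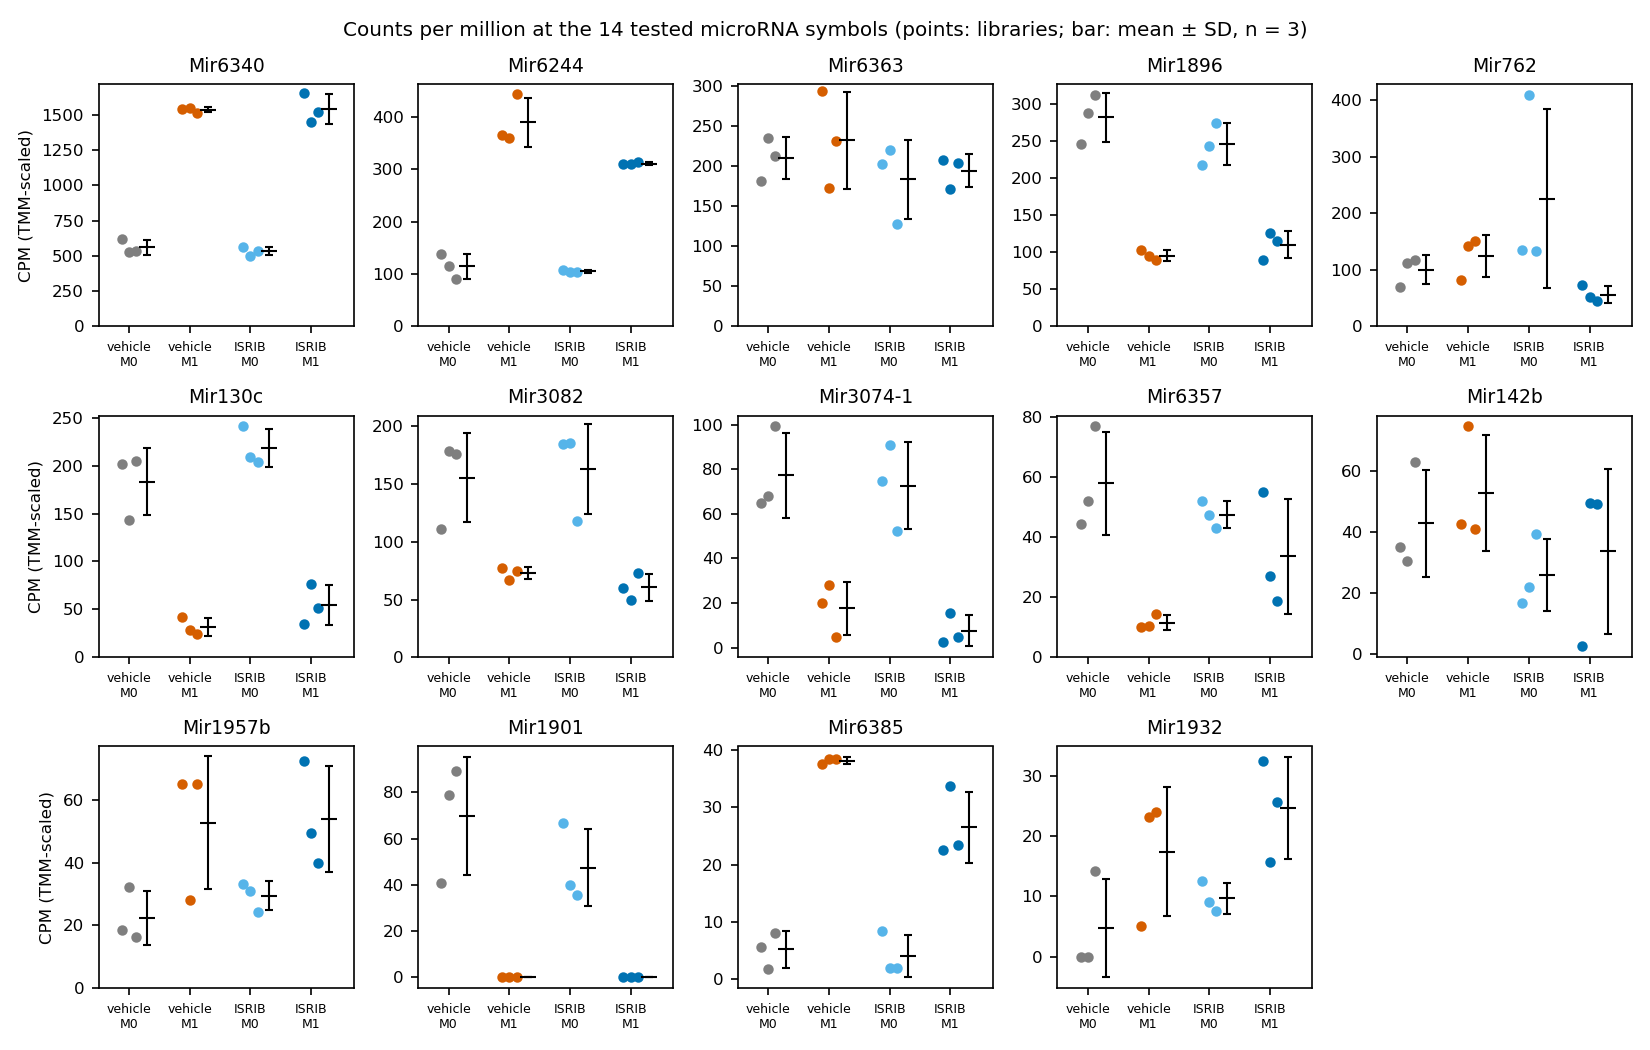
Level in CPM of the 14 tested microRNA symbols, 1 panel each on its own scale, in the 4 groups; coloured points are libraries and black bars the mean ± SD of 3. Mir6340, Mir6244 and Mir6385 are higher in all M1 libraries, Mir1901 is at 0 in all of them, and 1 ISRIB M0 library of Mir762 stands apart with 225 counts.

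Mir762 (chr7:127708487-127708562, plus strand) was the 1 symbol called with ISRIB and not in vehicle. It lies opposite the 5′ UTR and first coding bases of Bcl7c, a subunit of SWI/SNF chromatin remodelling complexes, which had 2 counts in all. Its counts were 38, 63 and 58 in vehicle M0 and 33, 55 and 63 in vehicle M1. The ISRIB libraries had 65, 225 and 71 in M0 and 29, 23 and 19 in M1. ISRIB M0 replicate 2 was far above all others. The 3 ISRIB M1 libraries had the lowest counts, but after TMM scaling their range overlapped that of vehicle M0. The log2 fold change of M1 against M0 was -2.01 ± 0.40 in ISRIB (SE, adjusted p 0.000175 by edgeR) and 0.32 ± 0.38 in vehicle (adjusted p 0.521 by edgeR). Without ISRIB M0 replicate 2 the change in ISRIB was -1.25 (adjusted p 0.00849).

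The difference between the responses of Mir762 was itself tested as the interaction of ISRIB with polarization. It was -2.33 ± 0.55 on the log2 scale and did not pass (unadjusted p 0.000260, adjusted p 0.183 by edgeR), nor with the replicate number as a block (adjusted p 0.0856). It passed without a filter on low counts (-2.30, adjusted p 0.00188) and without ISRIB M0 replicate 1 (-2.61, adjusted p 0.0302), and was -1.59 (adjusted p 0.484) without ISRIB M0 replicate 2. Mir3074-2, with 16 counts against 0 to 4 elsewhere, and Mir6769b, with 6 of its 8 counts, were also highest in that library.

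**Figure D4:**
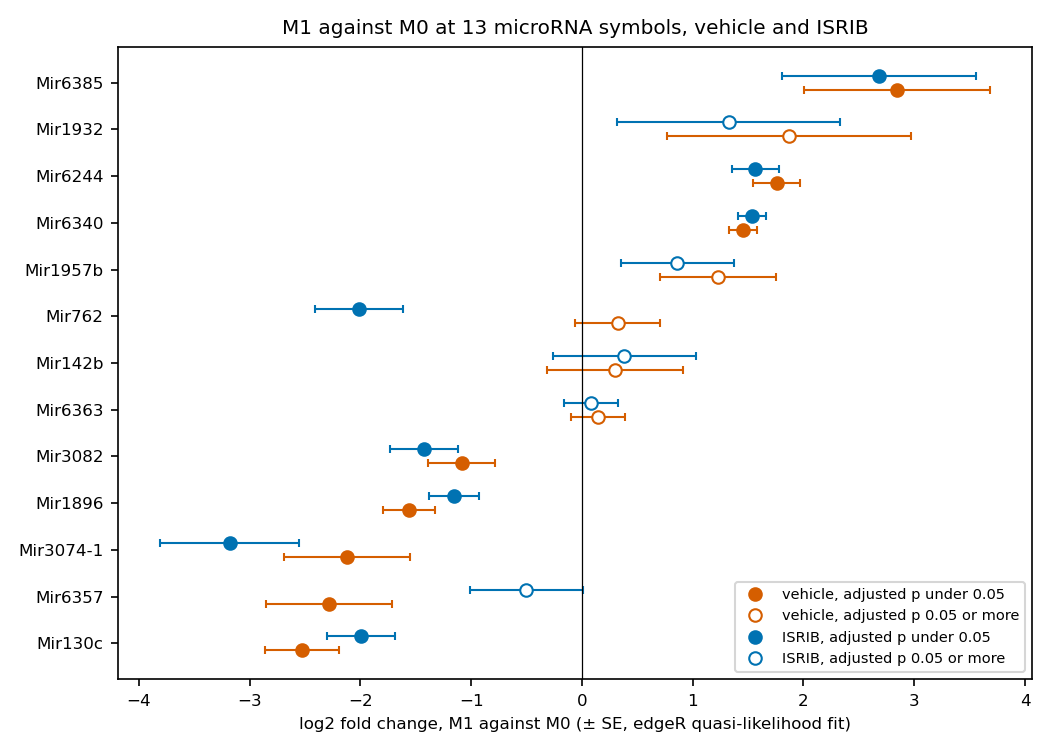
Log2 fold change of M1 against M0 with its SE (edgeR) for 13 of the 14 tested symbols in vehicle (orange) and ISRIB (blue); filled points have an adjusted p under 0.05, and Mir1901 is left out because it has no counts in M1. Mir762 lies at -2.01 in ISRIB and 0.32 in vehicle.

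The other 3 tested symbols did not pass in either comparison. Mir6363 (chr16:50727132-50727245, plus strand), opposite an exon of the noncoding RNA gene Dubr, had 68 to 131 counts in M0 libraries and 67 to 117 in M1 libraries. Its log2 fold changes were 0.15 ± 0.24 and 0.08 ± 0.25 (SE). Mir1957b (chr8:111450200-111450322, plus strand) lies opposite the 3′ UTR of Wdr59, a regulator of nutrient signalling to mTORC1. It had 8 to 18 counts in M0 and 11 to 29 in M1, with log2 fold changes of 1.23 ± 0.52 in vehicle and 0.86 ± 0.51 in ISRIB (SE, adjusted p 0.0579 and 0.175 by edgeR). In vehicle it passed with the DESeq2 Wald test (adjusted p 0.0419), without vehicle M0 replicate 2 (0.0393) and without vehicle M1 replicate 2 (0.0268).

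Mir1932 (chr11:119390472-119390561, plus strand) was the tested symbol that overlapped no other annotated gene, and the nearest, Rnf213, lay 2539 bases away on the same strand. It had 0, 0 and 7 counts in vehicle M0, 2, 9 and 10 in vehicle M1, 6, 5 and 4 in ISRIB M0 and 13, 7 and 11 in ISRIB M1. The log2 fold changes were 1.87 ± 1.10 and 1.33 ± 1.01 (SE, adjusted p 0.175 and 0.300 by edgeR). In vehicle it passed with limma-voom (adjusted p 0.0372) and without vehicle M0 replicate 3 (6.04 on the log2 scale, adjusted p 0.00887), where the remaining M0 libraries were at 0.

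ISRIB against vehicle gave no call among these symbols. In M1 cells 0 of 14 passed with edgeR, where 0% of all genes tested passed. An unadjusted p under 0.05 was reached by 134 of all 2356 genes tested and by 3 of the 14. These were Mir762 with a log2 fold change of -1.16 ± 0.41, Mir6357 with 1.50 ± 0.59 and Mir130c with 0.78 ± 0.36 (SE, adjusted p 0.806, 0.806 and 0.831). Without ISRIB M1 replicate 1, which held 22 counts, the value of Mir6357 was 0.96, and without ISRIB M1 replicate 2 that of Mir130c was 0.47. In M0 cells 0 of 14 passed (0% of all genes). An unadjusted p under 0.05 was reached by 143 of all genes tested and by 1 of the 14, Mir762. Its log2 fold change was 1.18 ± 0.37 (SE, adjusted p 0.380 by edgeR), or 0.43 without ISRIB M0 replicate 2. In the interaction 0 passed (0% of all genes). There 167 of all genes tested and 2 of the 14, Mir762 and Mir6357, had an unadjusted p under 0.05. The DESeq2 Wald test and limma-voom also called 0 of the 14 in each of these 3 comparisons. Of all 2356 genes, the Wald test called 3 and limma-voom 1 in M0 cells, and both called 0 in the other comparisons.

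The 65 symbols below the filter had 13 to 59 counts together in a library. Mir135a-1 (chr9:106154124-106154213, plus strand), opposite the 3′ UTR of the glycerate kinase gene Glyctk, was the highest of them with 80 counts. It had 19, 18 and 8 counts in vehicle M0, 4, 0 and 1 in vehicle M1, 4, 8 and 9 in ISRIB M0 and 2, 3 and 4 in ISRIB M1. The vehicle groups did not overlap, and in ISRIB 1 M0 and 1 M1 library both had 4. It was called lower in vehicle M1 in 8 of the 12 fits that left out 1 library. In such fits the filter asks for fewer libraries, and Mir135a-1 passed it through the vehicle M0 libraries with 19 and 18 counts. These calls are therefore no support for a difference. It was not called in the fit of all libraries without a filter on low counts. Mir6236 had 12 of its 23 counts in ISRIB M0 replicate 1, and Mir5620 had 2, 3, 5 and 5 counts in 4 M0 libraries and none in M1. The others had at most 42 counts over the 12 libraries.

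Few genes of the machinery that makes microRNAs had enough counts to be tested, which was also true of the whole table. Of 27 processing genes listed from general knowledge, 25 had counts and 3 were tested, Ddx5, Hspa8 and Hsp90ab1. Of all 24552 symbols, 10978 had counts and 2356 were tested. Drosha had 14 counts over the 12 libraries, Dgcr8 39, Dicer1 6 and Ago2 25. Ddx5, a helicase that works with Drosha, fell in M1, with 111 to 209 counts in vehicle M0 and 39 to 93 in vehicle M1 (log2 fold change -1.07 ± 0.28 SE, adjusted p 0.00277 by edgeR). Hsp90ab1 and Hspa8, chaperones that help to load Argonaute, rose by 1.93 ± 0.27 and 2.78 ± 0.59 on the log2 scale (SE, adjusted p 1.91e-06 and 0.000404 by edgeR). In ISRIB the same 3 genes passed in the same directions (-1.01, 2.26 and 2.44), where 44.8% of all genes tested passed in vehicle and also in ISRIB. None of the 3 passed between ISRIB and vehicle, where their lowest unadjusted p was 0.0927 by edgeR (Hsp90ab1 in M1 cells). Of all genes tested, 0% passed there.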

How the data were processed

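Reads were counted by the authors, who deposited whole-number counts per gene symbol for 12 samples, 3 in each of 4 groups taken from the sample titles. FastQC, HTSeq, DESeq2 and the build mm10 are named in the submitters' processing notes. The aligner, annotation and strand setting are not given in the sources used here. The deposited log2 table was not used.

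The tests ran on these counts under R 4.3.3, using edgeR 4.0.16. Low genes were removed by filterByExpr (minimum count 10, minimum total 15), which left 2356 genes with 97.7% of the counts. After TMM scaling, a mean per group was fitted to all 12 samples, and 5 contrasts were tested with the quasi-likelihood test, adjusted by Benjamini-Hochberg. The procedure was tested on simulated data. SE is the log2 fold change divided by the square root of the test's F. CPM uses the same scaling, and 1 count was worth 1.79 to 2.57 CPM.

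Symbols were placed on GENCODE vM21 (GRCm38, which is mm10), which held 77 of the 79, and 1 more was placed by RefSeq. Named were all symbols that passed the filter, the 15 with the most counts and the listed macrophage microRNAs; Mir1191, Mir7040, Mir99ahg, Mir1a-1hg, Mir3074-2, Mir6769b, Mir6236 and Mir5620 were added with their values in view. The symbols and lists were chosen with earlier results of these data known. A marker gene of the lists is not reported here. Alternatives were DESeq2 size factors, limma-voom (limma 3.58.1), the Wald test of DESeq2 1.42.0, no filter, a mean of at least 50 counts, a fit of the compared groups alone, a replicate block and leaving out each sample.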

Additional observations from a re-analysis of the deposited data

How the results depend on the processing

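The 9 symbols called between vehicle M1 and M0 were 5 of 7 tested with a minimum mean of 50 counts, which leaves fewer symbols to test. There 530 of all 836 genes tested passed. With a library left out 9 to 11 were called, for instance 9 without vehicle M0 replicate 1, where 1024 of all 2643 genes passed. In ISRIB 8 to 9 were called with a library left out. Without ISRIB M0 replicate 2 it was 8, where 956 of all 2617 genes passed. The interaction gave 1 call, Mir762, without a filter on low counts, where 9 of all 10978 genes passed. With a library left out it gave 0 to 1 calls. The 1 call came without ISRIB M0 replicate 1, where 4 of all 2679 genes passed, and the cause was not tested. With the replicate block the number called was 9 in vehicle, 9 in ISRIB and 0 in each other comparison. Of all 2356 genes, 1047 passed there in vehicle, 1026 in ISRIB and 3 in the interaction. Same-numbered samples had correlations of their deviations from -0.0600 to 0.113 across genes. Counting error at low counts can hide a shared origin, so these values cannot exclude pairing. The library names of each replicate number are consecutive, but the labels name no shared animal, and the numbers were not taken as pairs in the main fit. Without Mir6340 the symbols held 0.154% (M0) and 0.104% (M1) of a library with vehicle, and 0.160% (M0) and 0.0904% (M1) with ISRIB, against 0.214%, 0.239%, 0.217% and 0.226% with it. The change of Mir142b in ISRIB reversed with limma-voom (-0.20), and in vehicle it ran from -0.025 to 0.67 with a library left out. That of Mir6363 ran from -0.043 to 0.33 in vehicle and from -0.13 to 0.24 in ISRIB. Of 624 values of single symbols under these alternatives, 609 kept their direction and their side of the threshold. Of the rest, 7 passed newly, 4 no longer passed and 4 reversed. These values cover only the 14 symbols tested in the main fit. Outside M1 against M0 they cover only symbols with an unadjusted p under 0.05 in that fit. The new calls of Mir135a-1, and symbols that fell below a filter in an alternative, are not among them. Calls of microRNA processing genes stayed at 6 with any library left out. Low counts limit what can be said of every symbol beyond the first few: 57 of 79 had at most 10 counts.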
